A study of Mus musculus with 192 samples.

Results

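The regional comparison described here set the hippocampus of wildtype (WT) mice against the cortex of the same animals at 18 months of age. It used the 40 WT libraries of that age, 20 from hippocampus and 20 from cortex of 20 mice, out of 192 bulk RNA-seq libraries from 96 mice in the whole series. Libraries were chosen by the labelled genotype, age and region, and both libraries of a mouse were joined by the mouse number in their names. The mice were non-transgenic C57BL/6J animals (strain label BL6), littermates of hemizygous 5xFAD mice, a model of Alzheimer's disease in which mutant human transgenes, APP among them, are expressed in forebrain neurons from a Thy1 mini-gene. Of the 20 mice, 15 were female and 5 male, and the labels name no treatment. The 20 WT libraries of 4 months (10 mice, 5 female and 5 male, both regions of each) were used to see which regional differences held and which shifted between the ages. Different animals were sampled at each age, so age and any batch of dissection or sequencing that went with it cannot be told apart.

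The hippocampus is a cortical structure built as a chain of principal neurons. Granule neurons of the dentate gyrus receive input from the entorhinal cortex and project to CA3 pyramidal neurons, which in turn project to CA1, and the circuit is needed for spatial and episodic memory. The rest of the cortex is layered, with upper-layer neurons that connect cortical areas and deep-layer neurons that project to striatum, thalamus, brainstem and spinal cord. Both regions share inhibitory interneurons, astrocytes, oligodendrocytes, microglia and vessels, and bulk tissue measures their sum. In such libraries fewer cells of a type and less RNA per cell cannot be told apart.

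Total counts of a library at 18 months were 6932308 to 28189736 (median 12655344) in hippocampus and 9521165 to 75403178 (median 15901554) in cortex, and 1 cortex library, of mouse female_795, held the largest total. Levels are given as CPM, counts scaled to the same total in every library after normalization for library composition, as the lowest, the median and the highest of the 20 libraries of a region. Xist, the RNA that silences 1 X chromosome in females, was at 76.6 CPM or more in every female library and at 0.966 CPM or less in every male library. One hippocampus library, of mouse male_643, stood apart from the other WT libraries in microglial genes. It held 59.7 CPM of its own total for Cst7, a cystatin made by microglia around plaques, where the other 19 WT hippocampus libraries held at most 3.31 and the 16 5xFAD hippocampus libraries of the same age 95.2 to 261. Its Trem2 was 93.7 against at most 34.3 in the other WT and 136 to 281 in the 5xFAD hippocampus libraries, and its Thy1, 313, fell just above the lowest 5xFAD hippocampus value of 311. The cortex library of the same mouse did not stand apart in these genes. At 4 months the hippocampus libraries of mice male_465 and male_466 were the lowest in dentate markers and the highest in upper-layer cortical markers. Counts that changed by more than 1.5 times without these mice are given beside the results.

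At 18 months 8446 of 15946 genes tested (53%) differed between hippocampus and cortex at an adjusted p under 0.05 (edgeR quasi-likelihood test with the mouse as a block, Benjamini-Hochberg adjustment over all genes). Of all genes tested, 4407 (27.6%) were higher and 4039 (25.3%) lower in hippocampus. Counts of list members given below for 18 months are to be read against these shares. Most differences were small, with a median absolute log2 fold change of 0.20 over all genes. A difference of at least 2-fold was called for 4.03% of the genes as higher and for 3.59% as lower in hippocampus. For 185 genes every hippocampus library lay above every cortex library (1.16%), and for 251 every hippocampus library lay below (1.57%). The split between directions differed between the fit of counts and that of TPM, values scaled for transcript length. TPM were fitted without the normalization for library composition that the counts had, so these fits differ in more than scale. Results given on the TPM scale are those of that fit. With TPM the median of all genes was 0.11 on the log2 scale, and 72.3% of the called genes were higher in hippocampus, against 52.2% with counts. Small differences are best read against that shift.

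Markers of hippocampal principal neurons were mostly higher in hippocampus. Of 11 markers of dentate granule neurons, 8 were higher and 1, Pdzd2, was lower in hippocampus, with a median log2 fold change of 3.10 where the median of all genes was 0.01. C1ql2 (chr1:120340582-120343174, mm10), a secreted C1q-like protein of mossy fiber synapses, was at 58.2 to 279 CPM in hippocampus (median 129.9) and 0.87 to 12.1 CPM in cortex (median 6.91). No cortex library reached the lowest hippocampus library, and the log2 fold change was 4.46 ± 0.23 (adjusted p = 1.3e-13). Prox1, the homeobox factor that sets granule cell identity, was at 17.1 to 98.9 CPM in hippocampus (median 71.9) and 11.6 to 20.4 CPM in cortex (median 13.7), a log2 fold change of 2.18 ± 0.15 (adjusted p = 2.8e-11). All 20 mice had more Prox1 in hippocampus, although 1 hippocampus library fell within the cortex range. Dsp, a desmosome protein, was at 1.74 to 19.6 CPM in hippocampus (median 10.4) and 0 to 0.657 CPM in cortex (median 0.223). The regions did not overlap for Dsp (log2 fold change 5.38 ± 0.27, adjusted p = 8.3e-14), which lay near 0 in cortex, so the size of its fold change depends on the few cortex counts. Lct, the lactase gene, and Il16, an interleukin precursor, also separated every hippocampus library from every cortex library, with log2 fold changes of 4.996 and 3.24. Exons of Dsp and Il16 overlap those of other annotated genes and the counting strand was not stated, so a share of their reads may belong to those.

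Of 9 markers of CA1 pyramidal neurons, 8 were higher in hippocampus and Wfs1 alone was lower, with a median of 1.17. Spink8 (chr9:109812280-109826633, mm10), a serine protease inhibitor of the Kazal type, was at 21.03 to 63.2 CPM in hippocampus (median 44.6) and 0.402 to 4.97 CPM in cortex (median 1.97). Its regions did not overlap (log2 fold change 4.31 ± 0.21, adjusted p = 5.4e-14). Fibcd1, a fibrinogen-domain protein, was at 51.0 to 247 CPM in hippocampus (median 127) and 6.96 to 17.6 CPM in cortex (median 12.6), a log2 fold change of 3.32 ± 0.15 (adjusted p = 2.6e-14), and Lefty1, an inhibitor of Nodal signalling, at 6.29 to 33.1 CPM in hippocampus (median 16.8) and 1.51 to 3.31 CPM in cortex (median 2.34), a log2 fold change of 2.93 ± 0.15 (adjusted p = 1.1e-13). Both were higher in each hippocampus library than in any cortex library. Wfs1, which encodes an endoplasmic reticulum protein and is also made by upper-layer neurons, was at 46.7 to 208 CPM in hippocampus (median 114) and 77.1 to 300.8 CPM in cortex (median 153). The ranges overlapped widely and 14 of 20 mice had less Wfs1 in hippocampus (log2 fold change -0.38 ± 0.12, adjusted p = 0.01), a call that was lost in the male mice alone. Of 10 tested markers of CA2 and CA3 neurons, 8 were higher and Cacng5 was lower, with a median of 1.002. Homer3, a postsynaptic scaffold, was at 19.1 to 105 CPM in hippocampus (median 64.6) and 6.14 to 15.9 CPM in cortex (median 8.63), a log2 fold change of 2.87 ± 0.15 (adjusted p = 1.7e-13), and Grik4, a kainate receptor subunit of mossy fiber synapses, at 26.5 to 57.7 CPM in hippocampus (median 43.9) and 11.1 to 18.9 CPM in cortex (median 15.03), a log2 fold change of 1.57 ± 0.07 (adjusted p = 6.0e-15). Neither gene overlapped between the regions. Of 5 markers of hilar mossy cells 2 were higher and 2 lower (median -0.31), and of 11 markers of neurons in general 1 was higher and 6 were lower (median -0.16).

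**Figure D1:**
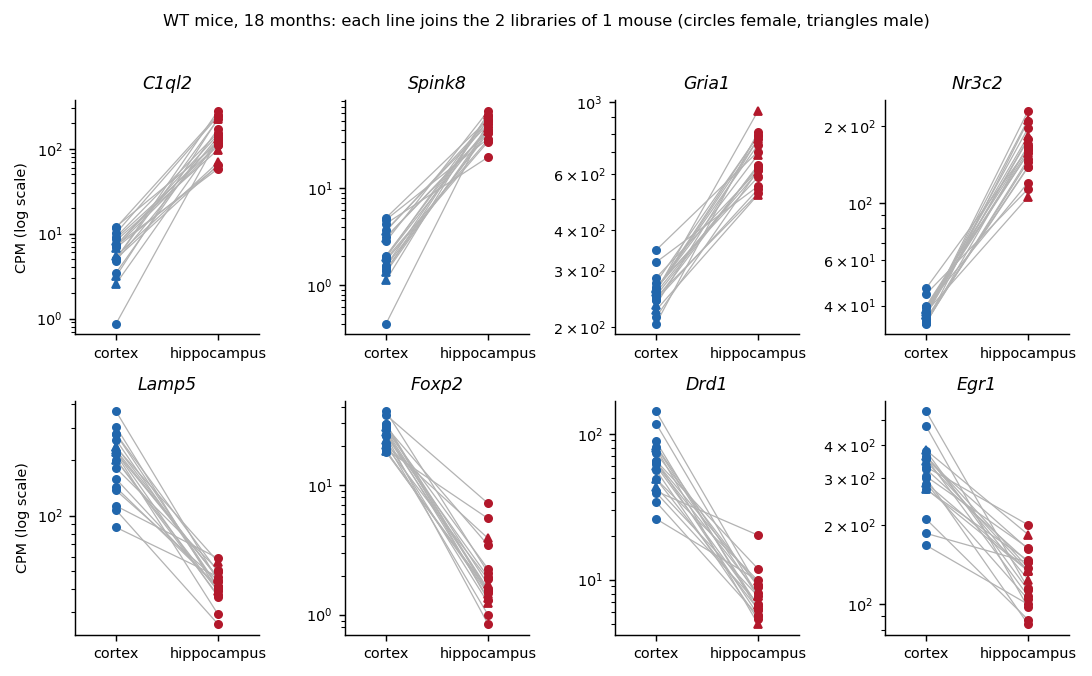
Levels of 8 genes in the 40 WT libraries of 18 months, in CPM on a log axis, with cortex and hippocampus of each mouse joined by a line (circles female, triangles male). Lines of C1ql2, Spink8, Gria1 and Nr3c2 rise in all 20 mice, and lines of Lamp5, Foxp2, Drd1 and Egr1 fall in all 20.

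Among the 12 protein-coding genes with the largest higher level in hippocampus in all 20 mice, several belonged to no marker list. Lhx9, a LIM homeobox factor, was at 8.71 to 26.0 CPM in hippocampus (median 15.6) and 0.067 to 6.97 CPM in cortex (median 0.957), a log2 fold change of 3.80 ± 0.31 (adjusted p = 3.9e-10), and Slc9a4, a sodium-proton exchanger, at 4.1 to 23.7 CPM in hippocampus (median 14.5) and 0.161 to 3.38 CPM in cortex (median 1.09), a log2 fold change of 3.70 ± 0.27 (adjusted p = 5.2e-11). Krt2, a keratin, and Vwa3b, a von Willebrand factor domain protein, were higher by log2 fold changes of 3.62 and 3.35. For each of these 4 genes all hippocampus libraries lay above all cortex libraries. Shisa6, an auxiliary subunit of AMPA receptors, was at 28.7 to 64.2 CPM in hippocampus (median 49.5) and 3.86 to 7.68 CPM in cortex (median 5.64), also without overlap (log2 fold change 3.24 ± 0.12, adjusted p = 1.3e-15).

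Cortical layer markers differed by layer. Of 11 upper-layer markers, 9 were lower in hippocampus and 2, Mdga1 and Scnn1a, were higher, with a median log2 fold change of -1.08. Lamp5, a lysosome-associated membrane protein of upper-layer neurons and some interneurons, was at 25.9 to 58.8 CPM in hippocampus (median 42.9) and 86.4 to 367 CPM in cortex (median 218). Every hippocampus library was below every cortex library (log2 fold change -2.17 ± 0.13, adjusted p = 1.3e-12). Cux2, a homeobox factor of layers 2 to 4, was at 20.6 to 68.4 CPM in hippocampus (median 31.9) and 70.0 to 156 CPM in cortex (median 108), a log2 fold change of -1.66 ± 0.12 (adjusted p = 4.0e-11), and the highest hippocampus library lay just under the lowest cortex library. Of 14 markers of layers 6 and 6b, 9 were lower and 1, Hs3st4, was higher (median -1.24). Foxp2, a forkhead factor of layer 6 neurons that project to the thalamus, was at 0.846 to 7.19 CPM in hippocampus (median 1.56) and 17.9 to 36.8 CPM in cortex (median 24.2), without overlap (log2 fold change -3.52 ± 0.17, adjusted p = 5.7e-14). Syt6, a synaptotagmin, was at 3.38 to 9.59 CPM in hippocampus (median 6.63) and 14.3 to 99.6 CPM in cortex (median 39.8), again without overlap (log2 fold change -2.44 ± 0.18, adjusted p = 4.6e-11). Layer 5 markers went the other way: 8 of 14 were higher in hippocampus and 4 lower (median 0.37). This list therefore does not mark cortical tissue in a comparison with hippocampus. Crym, a thyroid hormone binding crystallin, was at 81.4 to 341.01 CPM in hippocampus (median 211) and 39.0 to 145 CPM in cortex (median 70.8) and was higher in hippocampus in 19 of 20 mice (log2 fold change 1.54 ± 0.16, adjusted p = 1.5e-08). Fezf2, the factor that sets subcerebral projection identity, was at 33.1 to 63.8 CPM in hippocampus (median 46.6) and 10.6 to 54.8 CPM in cortex (median 35.6), with wide overlap (log2 fold change 0.48 ± 0.14, adjusted p = 0.0067). The call for Fezf2 was lost in the female mice alone.

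Markers of the striatum, which lies under the cortex, were the most one-sided list. All 16 were lower in hippocampus, with a median log2 fold change of -2.87. Adora2a (chr10:75316877-75334784, mm10), an adenosine receptor, was at 0.303 to 5.58 CPM in hippocampus (median 1.36) and 9.22 to 80.7 CPM in cortex (median 30.2), a log2 fold change of -4.22 ± 0.31 (adjusted p = 5.5e-11), and Drd1, the dopamine D1 receptor, at 4.96 to 20.2 CPM in hippocampus (median 7.69) and 26.1 to 142 CPM in cortex (median 62.8), a log2 fold change of -2.92 ± 0.17 (adjusted p = 1.4e-12). Neither gene overlapped between the regions. The summed level of the 16 markers was 774 to 3669 CPM (median 1646) in the cortex libraries and 193 to 360.0 CPM (median 254) in the hippocampus libraries, so the cortex libraries differed widely among themselves. Other genes with a low level in hippocampus in all 20 mice varied as widely among the cortex libraries. Chat, choline acetyltransferase, was at 0 to 2.7 CPM in hippocampus (median 0.0379) and 1.18 to 13.8 CPM in cortex (median 5.92), and Th, tyrosine hydroxylase, at 0.47 to 3.58 CPM in hippocampus (median 0.952) and 1.8 to 98.3 CPM in cortex (median 22.9). Cd4, known as a T cell co-receptor, was at 0 to 0.754 CPM in hippocampus (median 0.218) and 4.63 to 26.2 CPM in cortex (median 11.1), and Serpina9, a serpin, at 0 to 0.542 CPM in hippocampus (median 0.0926) and 2.83 to 24.9 CPM in cortex (median 8.69). Hippocampus libraries were at or near 0 for Chat, Cd4 and Serpina9, and the fitted log2 fold changes of -5.13, -5.40 and -5.91 are therefore no bounds. Others of the 12 genes with the largest lower level were Gm765, of unknown role, Dkkl1, a Dickkopf-like protein, Rasgef1c, an exchange factor of Ras, Shisa3, a modulator of Wnt receptors, Sh3rf2, a RING finger protein, and Rspo1, a Wnt agonist, with log2 fold changes of -5.93, -4.02, -3.89, -3.87, -3.74 and -3.68. Dkkl1 was at 0.281 to 6.22 CPM in hippocampus (median 1.19) and 9.22 to 30.4 CPM in cortex (median 21.3), without overlap (adjusted p = 2.0e-14). Exons of Gm765, Serpina9 and Shisa3 overlap other annotated genes. Of 11 tested markers of thalamus and habenula 2 were higher and 5 lower in hippocampus (median -0.25). Whether striatal tissue in the cortex libraries takes part in these differences was not tested.

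Interneuron markers were mostly lower in hippocampus, but not those of every class. Of 22 markers, 15 were lower and 4 higher (median -0.57). Gad1, which makes GABA, was at 261 to 505 CPM in hippocampus (median 355) and 364 to 1232 CPM in cortex (median 558) and lower in 17 of 20 mice (log2 fold change -0.52 ± 0.10, adjusted p = 1.9e-04). Vip, the vasoactive intestinal peptide, was at 24.1 to 54.2 CPM in hippocampus (median 36.1) and 48.9 to 119 CPM in cortex (median 79.2), lower in hippocampus in all 20 mice although the ranges met (log2 fold change -1.04 ± 0.08, adjusted p = 3.3e-10). Crh, corticotropin releasing hormone, was at 1.24 to 4.61 CPM in hippocampus (median 2.17) and 5.82 to 14.003 CPM in cortex (median 8.98), without overlap (log2 fold change -1.93 ± 0.13, adjusted p = 2.8e-11). Htr3a, a serotonin-gated channel of a class of interneurons, was at 9.27 to 27.996 CPM in hippocampus (median 16.2) and 6.01 to 10.4 CPM in cortex (median 7.39) and higher in hippocampus in all 20 mice (log2 fold change 1.08 ± 0.09, adjusted p = 6.7e-10). Sst, somatostatin, was at 194 to 438 CPM in hippocampus (median 332) and 155 to 458 CPM in cortex (median 326), and its log2 difference of 0.04 ± 0.10 did not pass (adjusted p = 0.78). The sign of the Sst difference changed between alternatives. Gad1, Penk and Tac1 are also made by striatal neurons. Of 22 tested neuropeptides and secreted neuronal factors, 14 were lower and 3 higher (median -0.64). Adcyap1, the peptide PACAP, was at 2.35 to 11.6 CPM in hippocampus (median 5.46) and 15.9 to 37.7 CPM in cortex (median 23.0), without overlap (log2 fold change -2.004 ± 0.12, adjusted p = 9.1e-13). Nptx1 and Nptx2, pentraxins that gather AMPA receptors, differed in opposite directions, with Nptx1 higher (log2 fold change 0.97 ± 0.08, adjusted p = 5.6e-10) and Nptx2 lower (log2 fold change -1.30 ± 0.13, adjusted p = 6.8e-09) in hippocampus. Bdnf, the growth factor of synaptic plasticity, was at 33.9 to 103 CPM in hippocampus (median 72.0) and 21.1 to 44.8 CPM in cortex (median 37.1) and higher in 19 of 20 mice (log2 fold change 0.98 ± 0.09, adjusted p = 3.8e-09).

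**Figure D2:**
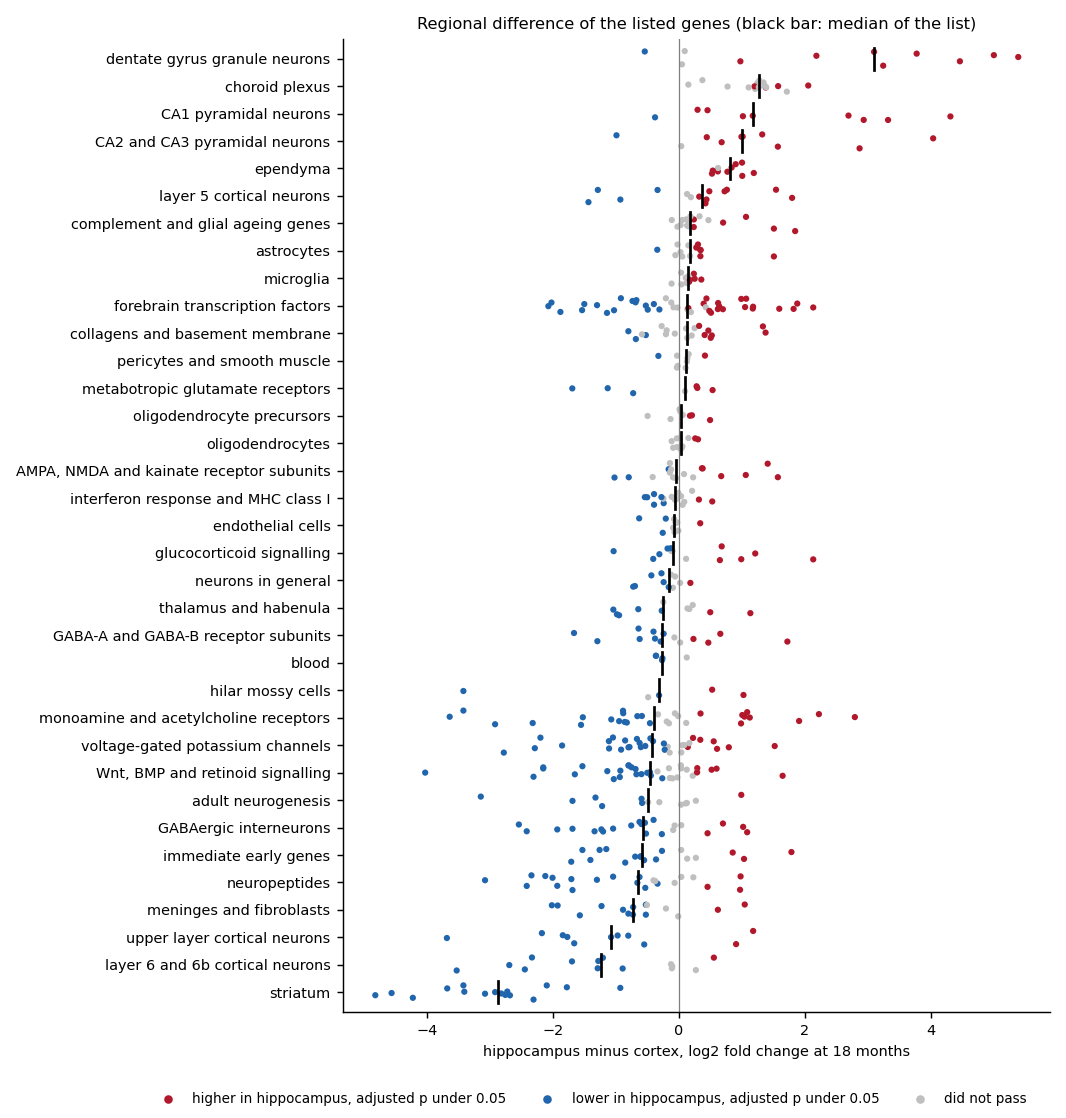
Log2 fold change, hippocampus minus cortex at 18 months, of every tested gene of the 35 lists, 1 point per gene, with the median of each list as a black bar. Red and blue points passed the test as higher and lower in hippocampus and grey points did not pass. Dentate, CA1 and CA2/CA3 markers sit to the right, and striatal markers lie wholly to the left.

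Neurotransmitter receptor subunits differed in both directions. Of 17 tested ionotropic glutamate receptor subunits, 6 were higher and 3 lower (median -0.04). Among all genes tested 53% differed, 27.6% higher and 25.3% lower, so these counts do not set the family apart. Gria1 (chr11:57011387-57330244, mm10), the AMPA receptor subunit GluA1, was at 517 to 941 CPM in hippocampus (median 636) and 205 to 347 CPM in cortex (median 259.6), without overlap (log2 fold change 1.41 ± 0.06, adjusted p = 2.1e-14). Gria4, the AMPA subunit GluA4, was at 18.9 to 36.0 CPM in hippocampus (median 25.4) and 40.03 to 55.8 CPM in cortex (median 46.0), without overlap in the opposite direction (log2 fold change -0.80 ± 0.07, adjusted p = 5.3e-10). Grin2a, an NMDA receptor subunit, was higher in hippocampus in all 20 mice, at 138 to 336 CPM in hippocampus (median 234) and 71.2 to 164 CPM in cortex (median 115), a log2 fold change of 1.06 ± 0.10 (adjusted p = 4.5e-09). Of 7 metabotropic glutamate receptors 3 were higher and 3 lower (median 0.10). Among 14 GABA receptor subunits, 4 were higher and 8 lower (median -0.27). Gabra5, the subunit of extrasynaptic receptors that carry tonic inhibition in pyramidal cells, was at 104 to 329 CPM in hippocampus (median 254) and 57.5 to 121 CPM in cortex (median 73.2), a log2 fold change of 1.72 ± 0.09 (adjusted p = 8.6e-14), and higher in hippocampus in all 20 mice. Gabra3 was at 11.3 to 28.9 CPM in hippocampus (median 16.5) and 38.7 to 53.0 CPM in cortex (median 43.9), a log2 fold change of -1.29 ± 0.09 (adjusted p = 1.3e-11), and Gabrd, the delta subunit of other extrasynaptic receptors, at 16.1 to 46.8 CPM in hippocampus (median 26.5) and 63.1 to 116 CPM in cortex (median 86.5), a log2 fold change of -1.66 ± 0.10 (adjusted p = 1.6e-12). Both lay lower in every hippocampus library than in any cortex library.

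Of 30 tested receptors for serotonin, dopamine, acetylcholine and noradrenaline, 9 were higher and 15 lower (median -0.40). Dopamine receptors went opposite ways. Drd5, the D5 receptor, was at 10.7 to 33.2 CPM in hippocampus (median 20.3) and 1.74 to 4.36 CPM in cortex (median 3.04), a log2 fold change of 2.79 ± 0.12 (adjusted p = 1.5e-14), while Drd1, given above, was lower, and no hippocampus library overlapped the cortex for either gene. Htr1a, the serotonin 1A receptor of principal neurons, was at 23.1 to 46.0 CPM in hippocampus (median 32.1) and 12.6 to 22.1 CPM in cortex (median 16.5), a log2 fold change of 0.99 ± 0.07 (adjusted p = 1.3e-11), and Htr4, the serotonin 4 receptor, at 2.9 to 7.91 CPM in hippocampus (median 5.98) and 0.536 to 2.58 CPM in cortex (median 1.23), a log2 fold change of 2.22 ± 0.15 (adjusted p = 1.2e-11). Both separated the regions fully. Chrm2, the muscarinic M2 receptor, was at 4.1 to 16.3 CPM in hippocampus (median 7.23) and 10.97 to 46.1 CPM in cortex (median 21.2) and lower in 19 of 20 mice (log2 fold change -1.52 ± 0.15, adjusted p = 6.4e-09). Of 32 voltage-gated potassium and HCN channel genes, 19 were lower and 7 higher (median -0.43). Kcnh5, an ether-a-go-go channel, was at 2.82 to 9.27 CPM in hippocampus (median 4.5) and 13.1 to 35.6 CPM in cortex (median 24.5), without overlap (log2 fold change -2.29 ± 0.14, adjusted p = 1.7e-12), and Kcnf1, a modulatory subunit, at 37.5 to 70.1 CPM in hippocampus (median 50.4) and 92.9 to 152 CPM in cortex (median 112), also without overlap (log2 fold change -1.11 ± 0.09, adjusted p = 1.8e-10). Kcng2, another modulatory subunit, was at 5.61 to 32.6 CPM in hippocampus (median 11.01) and 2.87 to 4.97 CPM in cortex (median 3.73), and every hippocampus library was above every cortex library (log2 fold change 1.52 ± 0.13, adjusted p = 4.7e-10).

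Transcription factors of the forebrain were split almost evenly, with 18 of 41 higher and 16 lower (median 0.13). Zbtb20, a repressor needed for hippocampal identity, was at 174 to 474 CPM in hippocampus (median 329) and 72.4 to 137 CPM in cortex (median 93.5), a log2 fold change of 1.82 ± 0.10 (adjusted p = 4.6e-13), and Neurod6, a bHLH factor of pyramidal neurons, at 83.0 to 394 CPM in hippocampus (median 306.9) and 27.9 to 134 CPM in cortex (median 86.7), a log2 fold change of 1.88 ± 0.12 (adjusted p = 9.8e-12). All 20 mice had more of both in hippocampus, and only Neurod6 had a hippocampus library within the cortex range. Mef2c, a regulator of cortical synapses, was at 101 to 237 CPM in hippocampus (median 153) and 408 to 889.9 CPM in cortex (median 691), and Meis2, a TALE homeobox factor, at 37.1 to 78.2 CPM in hippocampus (median 55.9) and 96.8 to 337 CPM in cortex (median 182). Neither overlapped, and both were lower in hippocampus (log2 fold changes -2.07 ± 0.10 and -1.54 ± 0.13, adjusted p = 3.1e-14 and 5.9e-10).

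The 2 receptors for corticosteroids differed in opposite directions. Nr3c2 (chr8:76899442-77245012, mm10), the mineralocorticoid receptor, was at 106 to 228 CPM in hippocampus (median 162) and 34.0 to 46.7 CPM in cortex (median 37.1), and the lowest hippocampus library held more than the highest cortex library (log2 fold change 2.13 ± 0.07, adjusted p = 9.3e-16). Nr3c1, the glucocorticoid receptor, was at 63.6 to 115 CPM in hippocampus (median 90.2) and 92.0 to 157 CPM in cortex (median 116) and lower in hippocampus in 18 of 20 mice, with wide overlap (log2 fold change -0.31 ± 0.05, adjusted p = 4.4e-05). Hsd11b1, which regenerates active corticosterone, was at 29.6 to 67.6 CPM in hippocampus (median 43.7) and 11.4 to 32.2 CPM in cortex (median 20.9) and higher in all 20 mice (log2 fold change 1.21 ± 0.12, adjusted p = 5.8e-09). Of the 13 tested genes of glucocorticoid signalling, 5 were higher and 5 lower (median -0.10). Among 35 tested genes of Wnt, BMP and retinoid signalling, 20 were lower and 5 higher (median -0.46). Chrd, the BMP antagonist chordin, was at 28.8 to 55.7 CPM in hippocampus (median 37.7) and 7.69 to 18.4 CPM in cortex (median 13.9), without overlap (log2 fold change 1.65 ± 0.09, adjusted p = 3.8e-13), and Rarb, a retinoic acid receptor that is also a striatal marker, at 1.63 to 4.88 CPM in hippocampus (median 3.49) and 8.88 to 47.2 CPM in cortex (median 17.2), without overlap in the other direction (log2 fold change -2.31 ± 0.18, adjusted p = 1.2e-10).

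Immediate early genes, which neurons transcribe within minutes of activity, were mostly lower in hippocampus: 12 of 18 were lower and 3, Nr4a3, Jun and Fosl2, were higher (median -0.58). The promoters of 4 of them are shown because cAMP-responsive transcription of this group is read through a short element near the start of the gene. The sequences are RefSeq promoters of the GRCm38.p6 build, 250 bases before to 50 bases after the start, and capitals mark each TGACG (the core of the cAMP response element) or its reverse complement CGTCA, both strands being searched.
Fos (chr12:85473640-85473939, plus strand): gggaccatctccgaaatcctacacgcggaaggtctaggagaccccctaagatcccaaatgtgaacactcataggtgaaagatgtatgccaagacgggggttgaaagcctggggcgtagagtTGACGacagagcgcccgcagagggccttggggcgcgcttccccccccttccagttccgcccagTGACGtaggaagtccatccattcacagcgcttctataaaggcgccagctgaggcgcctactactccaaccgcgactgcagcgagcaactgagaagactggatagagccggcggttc
Fosb (chr7:19309996-19310295, minus strand): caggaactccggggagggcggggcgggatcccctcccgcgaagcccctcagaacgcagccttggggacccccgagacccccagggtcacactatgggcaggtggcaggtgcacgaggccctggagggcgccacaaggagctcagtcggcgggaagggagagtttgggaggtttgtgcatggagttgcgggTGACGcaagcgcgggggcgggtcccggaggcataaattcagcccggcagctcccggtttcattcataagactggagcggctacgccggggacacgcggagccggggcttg
Npas4 (chr19:4989922-4990221, minus strand): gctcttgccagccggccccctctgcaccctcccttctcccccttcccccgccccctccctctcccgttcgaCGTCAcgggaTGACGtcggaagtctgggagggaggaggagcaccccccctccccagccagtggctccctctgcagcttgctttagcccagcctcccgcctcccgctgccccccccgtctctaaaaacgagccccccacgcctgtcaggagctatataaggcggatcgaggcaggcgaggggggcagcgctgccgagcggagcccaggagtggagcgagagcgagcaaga
Nr4a3 (chr4:48045055-48045354, plus strand): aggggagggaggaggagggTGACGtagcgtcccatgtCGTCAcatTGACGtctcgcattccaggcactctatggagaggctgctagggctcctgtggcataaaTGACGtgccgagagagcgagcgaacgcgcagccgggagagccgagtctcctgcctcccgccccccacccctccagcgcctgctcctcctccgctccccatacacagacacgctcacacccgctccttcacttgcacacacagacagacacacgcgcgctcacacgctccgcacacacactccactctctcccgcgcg
These windows held 2, 1, 2 and 4 matches. The core was found for 12 of the 14 immediate early genes with an entry (85.7%) and in 20.8% of all 32851 promoters. The full palindrome TGACGTCA was found for 2 of 14 (14.3%) against 1.79% of all promoters, and the serum response element (the CArG box) for 1 of 14 (7.14%) against 1.63%. The matches are descriptions of sequence. A gene can have several promoters, and base composition was not matched. The 14 genes had 19 promoters and were counted per gene, whereas the share of all promoters was counted per promoter. Elements farther than 250 bases before the start were not searched, so a low count does not show that a gene lacks the element.

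Among the genes whose promoters are printed, Fos, a subunit of AP-1, was at 5.73 to 27.3 CPM in hippocampus (median 9.99) and 13.6 to 74.9 CPM in cortex (median 36.0), and Fosb, its paralog, at 2.52 to 7.6 CPM in hippocampus (median 5.16) and 8.13 to 16.0 CPM in cortex (median 11.1). All 20 mice had less of both in hippocampus, and Fosb did not overlap (log2 fold change -1.53 ± 0.11, adjusted p = 4.3e-11 for Fos and log2 fold change -1.15 ± 0.11, adjusted p = 3.0e-09 for Fosb). Npas4, a bHLH factor induced by calcium entry, was at 0.498 to 5.22 CPM in hippocampus (median 1.58) and 1.57 to 9.58 CPM in cortex (median 4.75), a log2 fold change of -1.40 ± 0.14 (adjusted p = 1.6e-08). Nr4a3, an orphan nuclear receptor with the same promoter element, went the other way in all 20 mice, at 11.5 to 43.4 CPM in hippocampus (median 27.7) and 4.16 to 15.1 CPM in cortex (median 8.35), a log2 fold change of 1.79 ± 0.14 (adjusted p = 2.3e-10). Egr1, a zinc finger factor, was at 84.0 to 199.8 CPM in hippocampus (median 134) and 167 to 539 CPM in cortex (median 328) and lower in hippocampus in all 20 mice (log2 fold change -1.26 ± 0.10, adjusted p = 4.5e-10). Jun, a partner of the FOS proteins, was at 57.9 to 158 CPM in hippocampus (median 132) and 50.6 to 76.3 CPM in cortex (median 59.5) and higher in 19 of 20 (log2 fold change 1.03 ± 0.09, adjusted p = 7.2e-10).

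Glial lists lay closer to the median of all genes than the lists of dentate, CA1, CA2 and CA3, cortical layer and interneuron markers. Of 13 astrocyte markers, 6 were higher and 1, Aldh1l1, was lower (median 0.18). Gfap, the intermediate filament of astrocytes that rises in reactive cells, was at 352 to 1153 CPM in hippocampus (median 587) and 132 to 296 CPM in cortex (median 218), without overlap (log2 fold change 1.51 ± 0.12, adjusted p = 3.9e-10). Of 17 tested complement and glial ageing genes, 6 were higher and none was lower (median 0.18). Serpina3n, a serpin of reactive astrocytes, was at 22.5 to 74.1 CPM in hippocampus (median 49.6) and 8.9 to 22.7 CPM in cortex (median 14.5), a log2 fold change of 1.84 ± 0.12 (adjusted p = 1.0e-11), and C4b, complement component 4, at 44.7 to 145 CPM in hippocampus (median 87.4) and 29.8 to 65.7 CPM in cortex (median 42.9), a log2 fold change of 1.06 ± 0.12 (adjusted p = 5.3e-08). All 20 mice had more Serpina3n and 19 more C4b in hippocampus, and reads of C4b cannot be separated from its near copy C4a. Of 12 microglial markers 5 were higher and none lower (median 0.14), with 8 higher on the TPM scale, 3 in female mice alone and 4 without mouse male_643. Tmem119, a microglial membrane protein, was at 29.3 to 69.5 CPM in hippocampus (median 46.9) and 27.4 to 47.8 CPM in cortex (median 37.8) and higher in 15 of 20 mice (log2 fold change 0.36 ± 0.07, adjusted p = 3.4e-04). Trem2, which did not pass, was at 16.6 to 92.6 CPM in hippocampus (median 26.0) and 20.3 to 33.3 CPM in cortex (median 23.7), where the highest value is that of mouse male_643. Of 12 oligodendrocyte markers 2, Mobp and Mbp, were higher (median 0.03), and none passed with the length score as a covariate. This score is the mean log2 of the merged exon length of protein-coding genes, weighted by the library's counts. It depends on which genes are expressed and does not measure the length of the transcripts read. Of 8 markers of oligodendrocyte precursors 3 were higher and none was lower (median 0.04). Among all genes tested 27.6% were higher and 25.3% lower, so the higher counts of complement genes and precursor markers do not set those lists apart.

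The lining of the ventricles and the coverings of the brain gave opposite lists. Among all genes tested 27.6% were higher and 25.3% lower in hippocampus, and the count of higher choroid plexus markers was near that share. Of 10 ependymal markers 9 were higher in hippocampus and none lower (median 0.80), and none passed in the 5 male mice alone. Foxj1, the factor that drives motile cilia, was at 2.64 to 15.7 CPM in hippocampus (median 7.59) and 2.1 to 8.38 CPM in cortex (median 3.99) and higher in 14 of 20 mice (log2 fold change 0.77 ± 0.21, adjusted p = 0.0034). Of 16 choroid plexus markers 4 were higher and none lower (median 1.27), a count that was 15 without the mouse as a block and 0 in male mice alone. Their summed level was 54.0 to 13812 CPM (median 654) in hippocampus and 18.2 to 3233 CPM (median 724) in cortex. Ttr, transthyretin, a thyroxine carrier secreted by the choroid plexus, spanned 27.4 to 12895 CPM in hippocampus (median 567.5) and 3.6 to 3047 CPM in cortex (median 648) and did not pass. Both regions spanned a wide range of these levels. Of 15 markers of meninges and fibroblasts 10 were lower and 2, Dcn and Lum, were higher (median -0.73). Fmod, the proteoglycan fibromodulin, was at 2.08 to 14.1 CPM in hippocampus (median 4.23) and 7.03 to 31.9 CPM in cortex (median 18.3) and lower in all 20 mice (log2 fold change -1.92 ± 0.17, adjusted p = 1.4e-09). Dcn, the proteoglycan decorin, was at 15.5 to 123 CPM in hippocampus (median 47.0) and 9.77 to 36.5 CPM in cortex (median 23.8), a log2 fold change of 1.04 ± 0.22 (adjusted p = 4.3e-04). The part of choroid plexus, ependyma and meninges left on the tissue was not tested.

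Immune and blood genes gave small differences that depended on whether counts or TPM were fitted. Of 18 interferon response and MHC class I genes 6 were lower and 2 higher (median -0.06), but 1 was lower and 5 higher on the TPM scale. B2m, the light chain of MHC class I, was at 174 to 372 CPM in hippocampus (median 239.9) and 247 to 397 CPM in cortex (median 301.2) and lower in 17 of 20 mice (log2 fold change -0.28 ± 0.06, adjusted p = 8.7e-04), a call that was lost on the TPM scale. Of 5 blood genes 4 hemoglobin genes were lower (median -0.27), which share reads between near copies, and none passed without mice female_534, female_537, male_566 and male_643, whose hippocampus libraries were the lowest in dentate markers. Of 10 endothelial markers 1 was higher and 3 were lower (median -0.07), and of 9 pericyte and smooth muscle markers 1 was higher and 1 lower (median 0.11). Collagen and basement membrane genes had 7 of 19 higher and 3 lower (median 0.13). With 27.6% of all genes tested higher and 25.3% lower, the interferon, endothelial, pericyte and collagen counts do not set those lists apart. Of 13 tested genes of adult neurogenesis 6 were lower and 1, Neurod1, was higher (median -0.49). Dcx, doublecortin, a microtubule protein of young neurons, was at 3.21 to 11.5 CPM in hippocampus (median 6.15) and 8.48 to 47.0 CPM in cortex (median 15.3) and lower in all 20 mice (log2 fold change -1.32 ± 0.17, adjusted p = 5.8e-07). Mki67 and Top2a, genes of dividing cells, had too few counts to be tested.

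**Figure D3:**
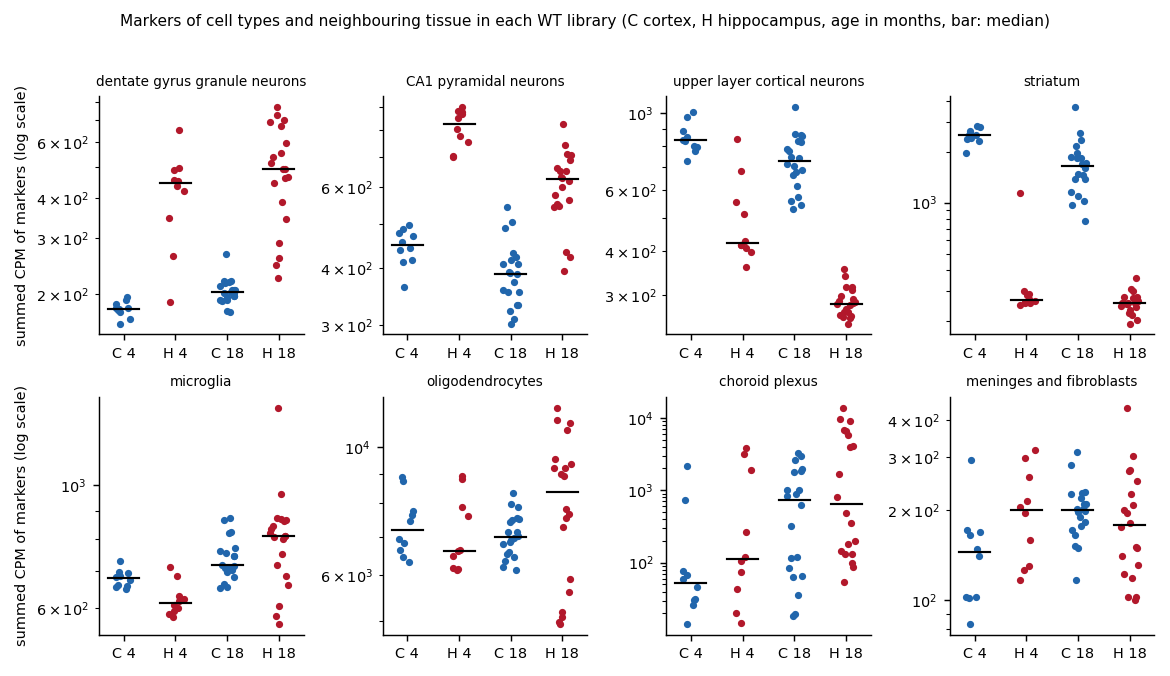
Summed CPM of the markers of 8 cell types or neighbouring tissues in each of the 60 WT libraries of 4 and 18 months (C cortex, H hippocampus), on a log axis with the median of each group as a bar. At 18 months striatal and upper-layer markers of all 20 hippocampus libraries lie below those of all 20 cortex libraries, whereas choroid plexus markers spread over 2 powers of 10 in both regions.

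The regional difference was also compared between the 15 female and the 5 male mice. Of 17562 genes, 0 had a different regional log2 fold change in the sexes at an adjusted p under 0.05 in edgeR's quasi-likelihood test (0%), and 606 (3.45%) had an unadjusted p under 0.05. DESeq2 also called 0 genes, and the edgeR test without a filter on low counts called 1. With 5 male mice such differences are measured less precisely than the regional difference itself.

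Most regional differences of 18 months were present in the same direction at 4 months. At 4 months 7191 of 16044 genes tested (44.8%) differed between the regions, 3526 higher (22%) and 3665 lower (22.8%) in hippocampus. On the TPM scale 77.4% of the called genes were higher in hippocampus, against 49% with counts. The length score was 12.12 to 12.22 (median 12.16) in hippocampus and 12.08 to 12.14 (median 12.13) in cortex at 4 months, and once it entered the fit 2195 genes were called, 1993 of them also called without it in the same direction. At 18 months the score was 12.01 to 12.18 (median 12.12) and 12.04 to 12.13 (median 12.08), and 7219 genes were called with it. Its part in the regional differences was not tested. Of the 8225 genes called at 18 months that were also tested at 4 months, 4715 (57.3%) were called in the same direction, 169 (2.05%) in the opposite direction and 3341 (40.6%) did not pass. For genes that differed at least 2-fold at 18 months, 842 of 1057 (79.7%) were called in the same direction at 4 months and 490 (46.4%) were 2-fold there as well. A call at one age and not at the other does not show a shift, so the difference between the ages was tested for each gene. The regional log2 fold change shifted in 1621 of 17324 genes (9.36%), in 673 (3.88%) toward hippocampus and in 948 (5.47%) toward cortex at 18 months. Without mice male_465 and male_466 of 4 months the counts were 347 and 578, and 868 of the 1621 genes were still called. On the TPM scale 914 genes shifted, 31.4% of them toward hippocampus against 41.5% with counts. Of the 4715 genes called alike at both ages, 347 (7.36%) shifted, 293 to a larger and 54 to a smaller difference, and 3178 (67.4%) did not pass and differed by less than 0.2 log2 units. Regional differences and their shifts for the 15569 genes tested at both ages are plotted together.

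**Figure D4:**
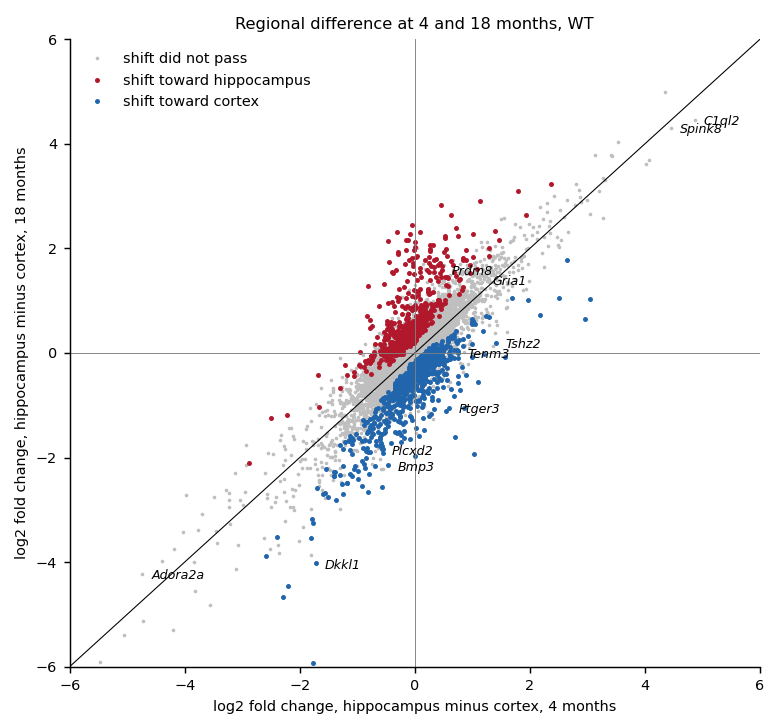
Regional log2 fold change (hippocampus minus cortex) at 18 months against that at 4 months for 15569 genes, with genes whose shift passed the test in red (toward hippocampus) and blue (toward cortex). Most genes lie along the diagonal of equal difference, among them C1ql2, Spink8 and Gria1, and Ptger3 and Tenm3 lie off it.

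Some markers of hippocampal principal neurons shifted. None of the 11 dentate markers did, and 1 of 9 CA1 markers shifted in each direction. Of 10 CA2 and CA3 markers 2 shifted toward hippocampus and none toward cortex. The medians of the 3 lists were -0.01, -0.09 and 0.33. Of all genes tested, 3.88% shifted toward hippocampus and 5.47% toward cortex, and counts this small do not set the lists apart from that. C1ql2 had a regional difference of 4.87 ± 0.36 (adjusted p = 3.3e-07) at 4 months and Prox1 one of 2.13 ± 0.21 (adjusted p = 4.3e-06). Spink8 was at 4.46 and Fibcd1 at 3.30 on the log2 scale at 4 months, near their 18-month values. Among CA1 markers Pou3f1, a POU domain factor, shifted toward hippocampus (0.92 ± 0.20, adjusted p = 0.0042) and Wfs1 toward cortex (-0.76 ± 0.18, adjusted p = 0.0084). At 4 months Wfs1 was at 197 to 291 CPM in hippocampus (median 247) and 139 to 228 CPM in cortex (median 199.95), higher in hippocampus (0.36 ± 0.07, adjusted p = 0.0014), and at 18 months it was lower. Gria1, Nr3c2, Zbtb20 and Gfap did not shift at an adjusted p under 0.05. Their 4-month log2 differences were 1.199, 1.67, 1.55 and 1.34, against 1.41, 2.13, 1.82 and 1.51 at 18 months.

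Some markers of cortical neurons shifted toward cortex between 4 and 18 months, layer 5 markers among them, of which most were higher in hippocampus at both ages. Shifts toward cortex passed for 3 of 11 upper-layer, 5 of 14 layer 5 and 4 of 14 layer 6 and 6b markers, 7 of 22 interneuron markers and 7 of 32 potassium channel genes, and no gene of these lists shifted toward hippocampus. Among all genes tested 5.47% shifted toward cortex. Without mice male_465 and male_466 the counts were 2, 4, 2, 3 and 2, and the share of all genes was 3.31%. The count of potassium channel genes was then near that share. The summed upper-layer markers of the hippocampus libraries were 360.2 to 841 CPM (median 423) at 4 months and 248 to 357 CPM (median 283) at 18 months. No 18-month hippocampus library reached the lowest of 4 months. In the cortex libraries the same sum was 727 to 1006 CPM (median 834) and 529 to 1037 CPM (median 726), which overlapped. Whether cortical tissue in the hippocampus libraries of 4 months takes part in these shifts was not tested.

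Plcxd2 (chr16:45959263-46010218, mm10), a phospholipase C domain protein and upper-layer marker, had the clearest shift among these. It was at 27.6 to 90.3 CPM in hippocampus (median 52.8) and 70.7 to 105 CPM in cortex (median 83.2) at 4 months and at 13.2 to 31.5 CPM in hippocampus (median 18.8) and 51.4 to 86.9 CPM in cortex (median 71.7) at 18 months. The regions overlapped at 4 months and not at 18, and the log2 difference moved from -0.56 to -1.84, a shift of -1.30 ± 0.16 (adjusted p = 1.9e-05). The log2 difference of 18 minus 4 months was -1.48 (adjusted p = 1.4e-09) in hippocampus and -0.17 (adjusted p = 0.04) in cortex, tests in which 54.1% of all genes passed in hippocampus and 60.2% in cortex. Bmp3, a BMP family ligand, was at 7.29 to 43.3 CPM in hippocampus (median 17.9) and 22.4 to 32.5 CPM in cortex (median 26.4) at 4 months and 3.1 to 21.7 CPM in hippocampus (median 6.68) and 20.5 to 42.0 CPM in cortex (median 31.7) at 18 months, a shift of -1.70 ± 0.25 (adjusted p = 1.1e-04). The regional difference of Bmp3 did not pass at 4 months. Mef2c, described above, shifted by -1.18 ± 0.20 (adjusted p = 5.0e-04) and Adcyap1 by -1.17 ± 0.21 (adjusted p = 6.3e-04). The log2 differences of 18 minus 4 months in hippocampus were -1.002 (adjusted p = 9.5e-06) and -0.93 (adjusted p = 4.8e-04), and those in cortex 0.29 (adjusted p = 0.03) and 0.31 (adjusted p = 0.016). Dkkl1 and Gm765, which were among the genes with the largest lower level at 18 months, shifted by -2.26 ± 0.37 (adjusted p = 3.2e-04) and -4.09 ± 0.62 (adjusted p = 1.5e-04). Ppm1l, a protein phosphatase, had a regional difference that did not pass at 4 months (-0.05 ± 0.04, adjusted p = 0.40) and was lower in hippocampus at 18 months (-0.82 ± 0.05, adjusted p = 9.8e-12), a shift of -0.79 ± 0.08 (adjusted p = 6.9e-07).

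For other genes the level in cortex, or in both regions, differed between the ages. Ncam2, a cell adhesion molecule, was at 24.9 to 47.0 CPM (median 35.6) in cortex at 4 months and 45.6 to 67.2 CPM (median 55.1) at 18 months, while the hippocampus held 24.8 to 54.8 CPM (median 36.4) and 27.3 to 52.6 CPM (median 34.1). The cortex ranges of the ages barely met, the hippocampus ranges overlapped, and the shift was -0.68 ± 0.09 (adjusted p = 2.2e-05). Ddx6, an RNA helicase of P-bodies, was higher at 18 months in cortex by 1.26 (adjusted p = 6.1e-13) and shifted by -1.08 ± 0.15 (adjusted p = 7.7e-05). Ptger3, a prostaglandin E2 receptor, turned round, at 3.57 to 10.7 CPM in hippocampus (median 8.09) and 3.95 to 6.49 CPM in cortex (median 4.94) at 4 months and 2.26 to 8.87 CPM in hippocampus (median 3.43) and 5.32 to 10.5 CPM in cortex (median 7.8) at 18 months. Hippocampus was higher at 4 months (0.60 ± 0.18, adjusted p = 0.016) and lower at 18 months (-1.04 ± 0.12, adjusted p = 8.6e-08), and the shift was -1.67 ± 0.22 (adjusted p = 2.5e-05). Myoc, myocilin, turned in the same way, from 0.68 to -0.82 (shift -1.52 ± 0.22, adjusted p = 1.1e-04). Exons of Myoc overlap another annotated gene. The 4-month calls for Wfs1, Plcxd2, Ptger3 and Myoc were lost once the length score entered the fit. Prrt1, an AMPA receptor associated protein, moved the other way and was higher in hippocampus only at 18 months (-0.08 ± 0.07, adjusted p = 0.33 at 4 and 0.85 ± 0.07, adjusted p = 1.0e-09 at 18 months, shift 0.92 ± 0.12, adjusted p = 1.9e-05).

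Some regional differences of 4 months were smaller or gone at 18 months. Tenm3, a teneurin that guides CA1 to subiculum wiring, was at 54.1 to 85.8 CPM in hippocampus (median 67.6) and 35.7 to 47.5 CPM in cortex (median 39.5) at 4 months, without overlap, and at 25.1 to 54.7 CPM in hippocampus (median 38.2) and 34.3 to 56.3 CPM in cortex (median 37.8) at 18 months, where the regions overlapped fully. The shift was -0.77 ± 0.11 (adjusted p = 1.1e-04), with a lower level in hippocampus (-0.76, adjusted p = 2.5e-08) at 18 months. Map2, a dendritic microtubule protein, was higher in hippocampus at 4 months (0.48 ± 0.05, adjusted p = 2.5e-06) and shifted by -0.56 ± 0.08 (adjusted p = 1.4e-04), with 433.1 to 569 CPM (median 485) in hippocampus at 4 months and 308 to 516 CPM (median 406) at 18 months. S100b, a calcium-binding protein of astrocytes, was lower in hippocampus at 4 months (-0.52 ± 0.05, adjusted p = 2.9e-06) and shifted toward hippocampus by 0.48 ± 0.07 (adjusted p = 1.5e-04). Its hippocampus levels were 79.6 to 107 CPM (median 86.9) at 4 and 96.4 to 177 CPM (median 128) at 18 months, against 117 to 148 CPM (median 131) and 103 to 168 CPM (median 129.5) in cortex, so that the groups separated at 4 months and overlapped at 18 months. Scn2a, a sodium channel, and Bbs1, a subunit of the ciliary BBSome, went from higher to lower in hippocampus, by shifts of -0.47 ± 0.07 (adjusted p = 1.5e-04) and -0.77 ± 0.10 (adjusted p = 1.9e-05). Zfp955b, a zinc finger protein, and Gpr135, an orphan receptor, shifted toward cortex by -0.44 and -0.76 on the log2 scale. Exons of Tenm3, Map2 and Zfp955b overlap other annotated genes.

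**Figure D5:**
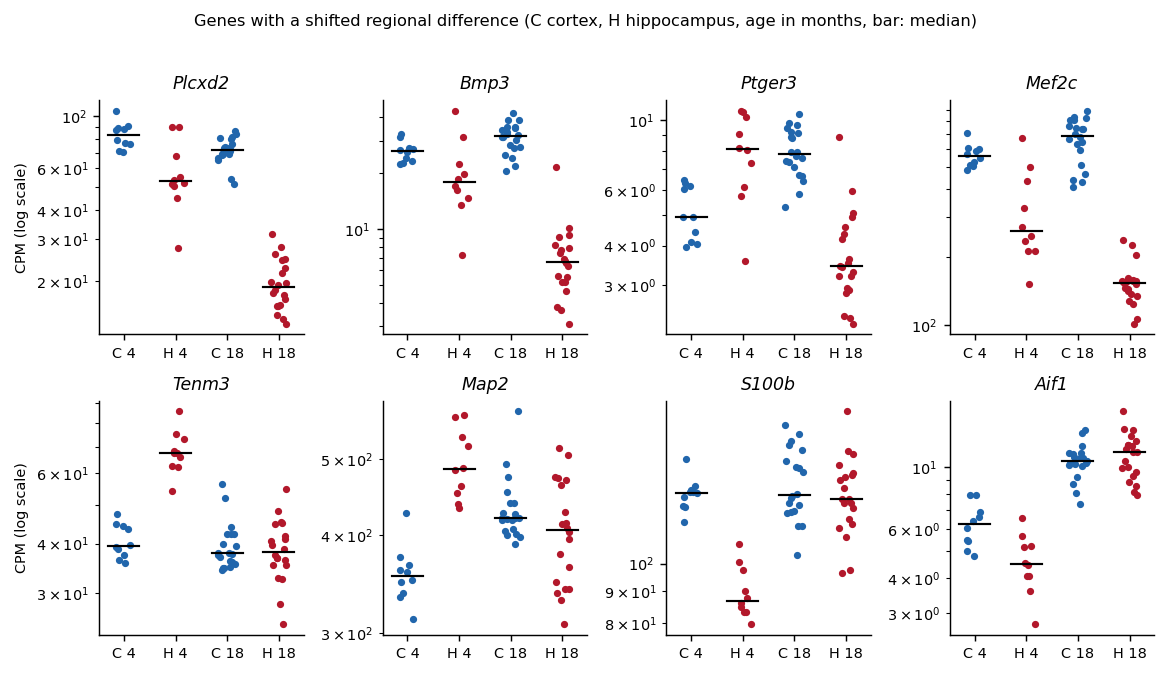
Levels in CPM (log axis) of 8 genes whose regional difference shifted between 4 and 18 months, in each WT library (C cortex, H hippocampus), with the median of each group as a bar. Plcxd2, Bmp3, Mef2c and Tenm3 are lower in hippocampus at 18 than at 4 months, and Aif1 is higher at 18 months in both regions.

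Of 18 immediate early genes 3 shifted toward cortex and 2 toward hippocampus, where 5.47% and 3.88% of all genes tested did. Fos, Fosb and Npas4 shifted further toward cortex by -0.9996 ± 0.20 (adjusted p = 0.0024), -0.65 ± 0.17 (adjusted p = 0.016) and -0.93 ± 0.23 (adjusted p = 0.0098), and Nr4a3 and Fosl2 toward hippocampus (Nr4a3 0.92 ± 0.22, adjusted p = 0.0081). The calls for Fosb and Npas4 were lost without mice male_465 and male_466, and those for Npas4 and Nr4a3 on the TPM scale. Fos had log2 differences of 18 minus 4 months of -2.52 (adjusted p = 1.3e-09) in hippocampus and -1.29 (adjusted p = 2.4e-06) in cortex. Fos levels of 4 months, 16.6 to 133 CPM (median 73.9) in hippocampus and 51.3 to 125 CPM (median 99.3) in cortex, lay mostly above those of 18 months. At 4 months, when 22.8% of all genes tested were lower in hippocampus, 8 of 12 microglial markers were lower and none higher. That count was 1 lower and 3 higher on the TPM scale and 0 once the length score entered the fit. Aif1 (IBA1), a marker of microglia, was at 2.75 to 6.55 CPM in hippocampus (median 4.49) and 4.82 to 7.94 CPM in cortex (median 6.24) at 4 months and 7.9 to 15.8 CPM in hippocampus (median 11.3) and 7.37 to 13.5 CPM in cortex (median 10.5) at 18 months, and shifted toward hippocampus by 0.52 ± 0.15 (adjusted p = 0.029), a call that was lost on the TPM scale. Levels of Aif1 were higher at 18 months in both regions. Among the glial lists 2 of 12 microglial and 1 of 13 astrocyte markers shifted toward hippocampus, and none of 8 markers of oligodendrocyte precursors shifted. Of all genes tested, 3.88% shifted toward hippocampus. As with the microglial list, 8 of 12 oligodendrocyte markers were lower in hippocampus at 4 months. That count was 3 without mice male_465 and male_466 and 0 on the TPM scale, and none of the 12 shifted. Of 15 meningeal markers 7 shifted toward cortex, against 5.47% of all genes tested, and Dcn went from 2.52 ± 0.17 (adjusted p = 1.9e-07) to 1.04. Dcx, of young neurons, also shifted toward cortex (-1.09 ± 0.25, adjusted p = 0.0057), from a log2 difference of -0.25 at 4 months that did not pass. The sexes were unequally represented at the ages. With a region by sex term in the fit 1165 genes shifted, and 1134 of the 1621 genes of the main fit (70%) were among them. In the 15 female mice of 18 and the 5 of 4 months alone 270 genes shifted. In the 5 and 5 male mice 0 did so in edgeR's test (1725 had an unadjusted p under 0.05). The shifts of Aif1, Dcx, Fos, Fosb, Npas4, Nr4a3, Pou3f1 and Wfs1 did not pass in female mice alone.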

How the data were processed

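Cortices and hippocampi were microdissected and total RNA was sequenced from modified SMART-seq2 libraries. The authors aligned reads with STAR 2.5.1b to mm10, per the submitters' processing notes and methods, and quantified genes with RSEM 1.2.22 against GENCODE M21; they deposited 1 table of expected counts and 1 of TPM. The strand setting of the counting is not given in the sources used here. TPM divide reads by transcript length and rescale each library, so they weigh long genes differently from counts.

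The deposited expected counts were rounded to whole numbers and genes kept with filterByExpr (minimum count 10, minimum total 15). Each comparison was fitted with edgeR 4.0.16 (R 4.3.3), TMM normalization, glmQLFit and glmQLFTest, and p-values were adjusted by Benjamini-Hochberg over all genes tested (threshold 0.05; a 2-fold call also needs an absolute log2 fold change of 1). The regional tests and the shift (region by age over 60 WT libraries) held the mouse as a block, and the 18 against 4 month tests within a region held sex as a covariate. Errors are standard errors of the log2 fold change. A level is CPM with TMM factors over the 60 libraries. Labels pair the libraries of a mouse by its number. Deviations of both libraries of a mouse from their region's mean correlated with a mean r of 0.208 over 10 mice at 4 months and 0.0194 over 20 mice at 18 months. DESeq2 1.42.0 and limma 3.58.1 (log2 of TPM + 1, without normalization for library composition) served as alternatives. No 2 of the 470 library pairs within a group were identical.

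Genes named were the 12 with the largest log2 fold change in each direction among protein-coding genes with the same direction in all 20 mice and at least 5 CPM on average in the higher region, the 8 with the lowest adjusted p for a larger and the 8 for a smaller difference at 18 months, members of 35 gene lists, and Thy1 and Xist as checks of the labels. The microglial genes Cst7 and Trem2 were set against 5xFAD libraries after their values were seen. Comparisons, members and lists were chosen with earlier results of these data known. On simulated counts with 200 genes changed by 1 log2 unit, the 18-month test recovered 187 of 194 tested and the shift test 171 of 200. Some genes that the rule names are not reported here. Promoters were RefSeq entries. Libraries of 5xFAD mice and of 8 and 12 months were not used, except for the check of labels.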

Additional observations from a re-analysis of the deposited data

Results flagged for a closer look

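Samples far from the rest of their group were looked for in the groups of 10 libraries of 4 months, gene by gene and marker list by marker list, as a highest or lowest value whose gap to its neighbour was large against the range of the group. Of 240 such groups 30 held 1, where chance gives about 1 in 20 (5%). The groups of 20 libraries of 18 months are too large for this test.

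Most of these values came from 1 mouse, mouse male_466. Its hippocampus library was the highest of 4 months in striatal markers, with a sum of 1143 CPM where the next library held 301.8, and in Adora2a (19.8 CPM, next 1.8), Drd1 (42.6, next 13.1), Rarb (10.98, next 4.75), Chat (3.41, next 0.758), Cd4 (6.24, next 0.537), Serpina9 (2.24, next 0.161), Rasgef1c (20.6, next 8.22) and Sh3rf2 (4.67, next 1.11). The same library was also the highest in Dcx (17.8, next 12.4), Gabra3 (57.2, next 39.5), Nptx2 (42.2, next 26.8) and the sum of interneuron markers (2153, next 1799), and the lowest in Hsd11b1 (22.7, next 39.1) and Htr1a (19.2, next 32.5), which were higher in hippocampus than in cortex. Its cortex library was the highest in Gabra5 (77.3, next 60.4) and in summed interneuron markers (2420, next 2154).

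Other mice of 4 months stood apart in single genes or lists. In cortex, mouse female_331 was the highest in choroid plexus markers (2174 CPM, next 737) and in meningeal markers (294, next 171) and the lowest in the length score (12.08, next 12.11). Mouse male_525 was the highest in thalamic markers (373, next 244) and Lhx9 (3.9, next 1.25), mouse male_526 in Drd5 (4.97, next 3.63), mouse female_518 in Mef2c (712, next 607) and mouse male_465 in endothelial markers (683, next 633). Mouse male_445 was the lowest in Fos (51.3, next 91.8), and mouse female_330 the lowest in Zfp955b (23.9, next 25.9). In hippocampus, mouse female_331 was the lowest in Gpr135 (8.97, next 12.0), mouse female_432 the highest in Shisa3 (2.17, next 1.18) and mouse female_518 the lowest in Zfp955b (25.0, next 29.8).

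The regional difference of 27 named genes differed between the ages in the region-by-age test, as given above. Toward cortex at 18 months these were, on the log2 scale, Gm765 (-4.09), Dkkl1 (-2.26), Bmp3 (-1.70), Ptger3 (-1.67), Myoc (-1.52), Plcxd2 (-1.30), Mef2c (-1.18), Adcyap1 (-1.17), Dcx (-1.09), Ddx6 (-1.08), Fos (-0.9996), Npas4 (-0.93), Ppm1l (-0.79), Tenm3 (-0.77), Bbs1 (-0.77), Gpr135 (-0.76), Wfs1 (-0.76), Ncam2 (-0.68), Fosb (-0.65), Map2 (-0.56), Scn2a (-0.47) and Zfp955b (-0.44). Toward hippocampus they were Nr4a3 (0.92), Pou3f1 (0.92), Prrt1 (0.92), Aif1 (0.52) and S100b (0.48).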

How the results depend on the processing

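Where an alternative moved a count by more than 1.5 times, the share of all genes tested under it is given. At 18 months 27.6% of genes were higher and 25.3% lower in hippocampus, at 4 months 22% and 22.8%, and 3.88% shifted toward hippocampus and 5.47% toward cortex. With TPM at pseudocounts of 1 and 0.1, 14.5% and 14.5% were lower at 18 months, 35.9% and 36% were higher and 10.5% and 10.6% lower at 4 months, and 1.88% and 1.84% shifted toward hippocampus and 4.1% and 4.08% toward cortex. TPM without a filter on low values tested more genes, and 7691 (20.6%) were higher at 18 months, 1685 (4.91%) lower at 4 months, and 313 (0.807%) and 459 (1.18%) shifted. In male mice alone 8.02% were higher and 9.42% lower at 18 months, 6.85% and 7.76% at 4 months, and 0% and 0% shifted in edgeR's test (1725 genes at an unadjusted p under 0.05), with fewer samples by construction. Female mice alone gave shifts of 0.664% and 0.856%. With the length score in the fit 6.16% were higher and 7.52% lower at 4 months. Without a low-count filter 1 gene (0.00269%) was less hippocampal in female mice. Of the alternatives chosen after seeing the data, which left out mice male_465 and male_466, mice female_534, female_537, male_566 and male_643, mouse female_795 or mouse male_643, or held the length score in the tests between ages, the first gave shifts of 1.99% and 3.31%. Signs turned for 4 genes whose difference had not passed. At 18 months Sst was at -0.0050385 without a low-count filter, -0.0661 in female mice, -0.0527 without mice female_534, female_537, male_566 and male_643 and -0.0259 without mouse female_795, and it passed as higher in hippocampus on the TPM scale and in male mice. At 4 months, with TPM at both pseudocounts and without a filter, Dcx was at 0.0543, 0.0726 and 0.0543, Ppm1l at 0.0751, 0.0792 and 0.0751 and Prrt1 at 0.0676, 0.0688 and 0.0676. With the length score Dcx was at 0.0877 and Prrt1 at 0.0016, and Prrt1 was at 0.0039 in male mice. Of the others, 105 counts stayed within 1.5 times the count of the main fit. Among values of named genes, 1819 kept their side of the threshold, 80 of called genes missed it and 5 of genes that had not passed did pass. The cause was not tested.

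Without the replicate block (the mouse) 8576 genes differed at 18 months, 8097 of them also called with the block in the same direction, and 1862 shifted, 1455 of them also called with it. Leaving out the block changed 1 call among the named genes, Myoc at 4 months (adjusted p = 0.061 in edgeR's test), and no other. Among the lists, without the block 15 of 16 choroid plexus markers were higher at 18 months (4 with it), 0 of 5 blood genes and 3 of 18 interferon genes lower (4 and 6 with it), and 6 of 11 upper-layer markers shifted toward cortex (3 with it). At 4 months 4 of 12 oligodendrocyte markers were lower without it (8 with it). So were 4 of 18 immediate early genes (12 with it) and 0 of 5 blood genes (4 with it). The other region of the same mouse was the best match in 4 of 10 mice at 4 months and 2 of 20 at 18 months. Depth limited genes near 0 counts in 1 region (Dsp, Chat, Cd4, Serpina9, Gm765), whose fold changes are imprecise, and the tests within male mice rest on 5 mice at each age.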
